A study of Mus musculus with 6 samples.

Results

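The 36 genes described here make fatty acids and sterols or control that synthesis, and many of them are known targets of the sterol regulatory element-binding proteins (SREBPs). They were taken by name and not by their values, and all 36 were found among the 23808 genes of the deposited table. They form a lipogenic arm of 15 genes and a sterol arm of 21 genes. Messenger RNA was sequenced from hearts of wild-type (WT) female mice kept from 4 to 12 weeks of age on normal chow (NC) or on a diet high in fat (HFD). Each diet had 3 libraries, and both diets shared the genotype, sex, tissue and ages. The labels do not give the composition of the diet, the part of the heart taken or whether each library is a separate animal. The p-values thus rest on the variation among 3 libraries a diet, part or all of which may be technical. Values are FPKM, fragments scaled to gene length and to the size of the library, and the depth of each library is unknown.

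New fatty acids are built from cytosolic acetyl-CoA, which Acly makes from citrate and Acss2 from acetate. Fasn joins the units into palmitate, elongases (Elovl genes) lengthen the chain, and desaturases (Scd and Fads genes) add double bonds. Sterols start from the same acetyl-CoA through Hmgcs1, pass by isoprenoids and squalene, and end at cholesterol. SREBP-1c, encoded by Srebf1, mainly drives the first pathway and SREBP-2, encoded by Srebf2, the second. When sterols are plentiful the Insig proteins hold the SREBPs in the endoplasmic reticulum, so that the sterol genes are known to go down together. Liver and adipose tissue are the main sites of fatty acid synthesis, and the heart mostly burns fatty acids that it takes up.

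The libraries carried high levels of heart muscle genes, with Myh6 between 1263 and 2020 FPKM. HFD 1 had the lowest summed FPKM, 576334 against 687877 to 739406 in the other 5 libraries. Markers of other cell types differed between libraries of the same diet, and the summed macrophage markers also differed between the diets. The summed level of 6 atrial markers ran from 355.7 to 13940 FPKM on NC and from 444.6 to 7123 FPKM on HFD, and that of 5 structural RNAs from 179.8 to 900.1 and from 183.7 to 1705 FPKM. The summed level of 9 adipocyte markers ran from 22.2 to 84.9 FPKM on NC and from 22.4 to 78.3 FPKM on HFD, and is given library by library beside the lipogenic genes. Most of the lowest sum of each diet came from Cidea, a marker also expressed in heart (18.5 FPKM in NC 2 and 21.2 FPKM in HFD 1). The sum of 5 macrophage markers was 70.21 to 85.59 FPKM on NC and 46.22 to 66.04 FPKM on HFD, without overlap. All 5 had a lower mean log2 level on HFD, and limma called none (adjusted p = 0.9998 each). All 5 endothelial markers had a higher mean log2 level on HFD, and none was called. Their sum overlapped, at 310.1 to 332.4 FPKM on NC and 307.8 to 493.3 FPKM on HFD. The part of these cells in the levels of the lipid genes was not tested.

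Of the 36 genes, 33 reached a mean of 1 FPKM over the 6 libraries and entered the test, 14 of the lipogenic and 19 of the sterol arm. None of them was called by limma at an adjusted p of 0.05 (background 0.0% of 11456 tested genes). At an unadjusted p of 0.05, limma marked 0 of the 33, against 415 of all tested genes (3.62%, with 2.3% lower and 1.32% higher on HFD). In the lipogenic arm 8 members had a higher and 6 a lower mean log2 level on HFD, with a median log2 fold change (HFD minus NC) of 0.09. In the sterol arm 8 were higher and 11 lower, with a median of −0.06. Over all tested genes the median was −0.02, with 53.1% lower and 46.9% higher. The mean log2(FPKM + 1) of the 14 lipogenic genes was 2.87, 2.33 and 2.84 in the NC libraries and 2.45, 2.63 and 2.96 in the HFD libraries, and that of the 19 sterol genes 2.18, 1.98 and 2.11 and 1.91, 1.82 and 2.26. The diets overlapped in both arms, and both median changes were smaller than the pooled SD of these means within a diet, 0.28 and 0.18. In 2 of the 33 members, Acly and Fdps, the values of the diets did not overlap (8.13% of all tested genes). The median absolute log2 fold change was 0.22 over the 33 members and 0.15 over all tested genes. Fewer cells of a type and less RNA per cell cannot be told apart in these whole-tissue libraries.

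**Figure D1:**
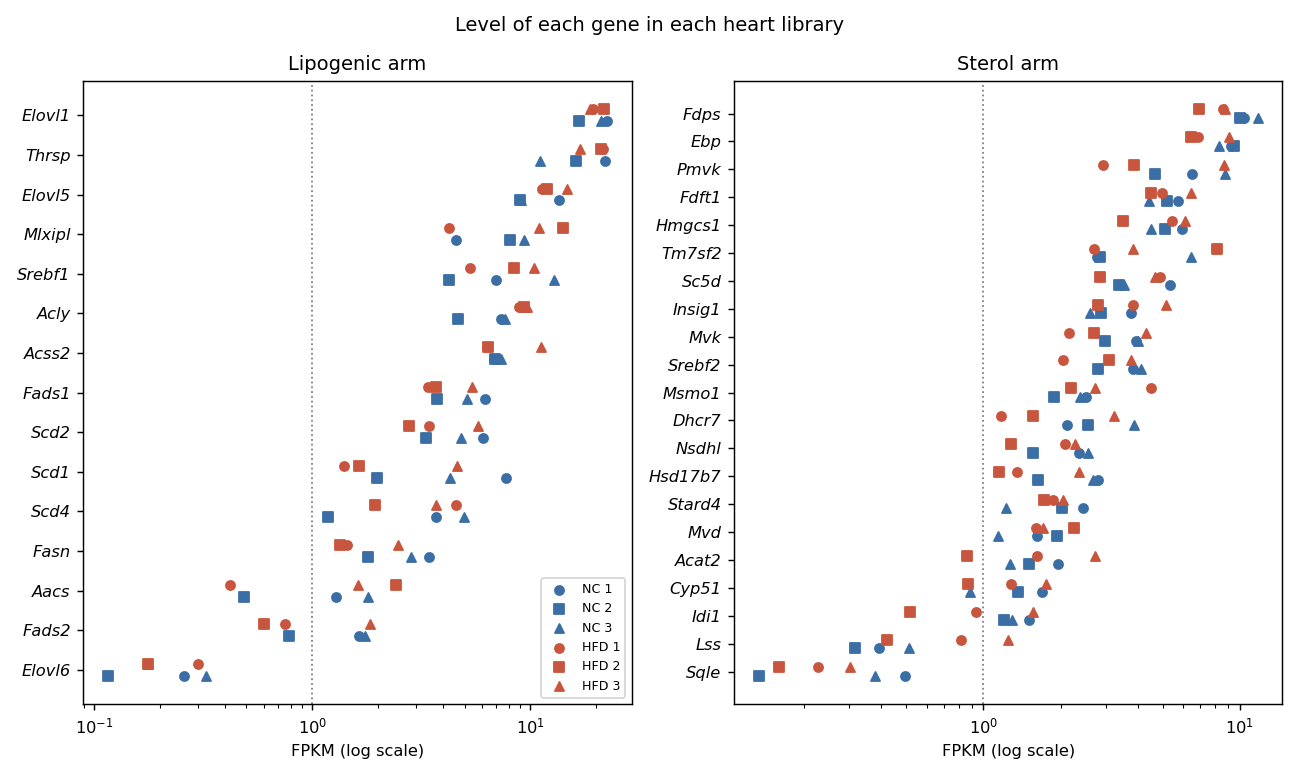
FPKM on a log axis for each gene of the lipogenic (left) and sterol (right) arm, ordered by mean level, with 1 point per library (blue NC, red HFD; circle, square and triangle for libraries 1, 2 and 3) and a dotted line at 1 FPKM. The diets overlap in all genes except Acly, where the 3 HFD points are higher, and Fdps, where they are lower, and Elovl6, Lss and Sqle have means under 1 FPKM.

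Levels per length set the members apart more than the diets did. Elovl1, which lengthens very long saturated chains, had the highest mean of the 36 at 20.0 FPKM over the 6 libraries, above 81.2% of tested genes. Thrsp, a small nuclear protein that promotes lipogenesis, followed at 18.1 FPKM. Fasn itself was at 2.22 FPKM, with Thrsp and Acly above it in 6 of 6 libraries. In the sterol arm no gene reached 10 FPKM on average. Fdps, which makes farnesyl diphosphate, was highest at 9.40 FPKM. Sqle and Lss, the enzymes that turn squalene into the first sterol, were lowest at 0.282 and 0.618 FPKM. Srebf1 was above Srebf2 in 6 of 6 libraries, at means of 8.03 and 3.28 FPKM.

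The 250 bases before the RefSeq transcription start (build GRCm38.p6, which is mm10) were available for 29 of the 36 genes, 12 lipogenic and 17 sterol. The CCAAT box, bound by NF-Y, a partner of the SREBPs, was present on either strand in 16 of 17 sterol genes and in 7 of 12 lipogenic genes, against 37.5% of all 27025 genes with a window. The GC box GGGCGG was present in 16 of 17, 6 of 12 and 35.4%, respectively. The letters TCACNCCAC, a core of the sterol regulatory element, were found in Hmgcs1 and in 1 of the windows of Mlxipl, against 1.22% of all genes. The E-box CACGTG stood in 4 of 17 sterol and 2 of 12 lipogenic genes (6.86% of all), and TCANNTGA in Thrsp only among the 29 (8.11% of all). A gene with several starts counted once if any window held the letters. A match is a description of the letters and no evidence of binding, and the absence of one says only that these letters are not in the window.

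The promoters printed are examples of these counts, 2 lipogenic ones (Acly, the member with HFD above NC, and Fasn) and 3 from early and late steps of the sterol pathway. Capitals mark CCAAT, its complement ATTGG and, in Hmgcs1, the match to TCACNCCAC. All are written 5′ to 3′ on the strand of the gene and end at the base before the start.
Acly (chr11:100528001-100528250, minus strand): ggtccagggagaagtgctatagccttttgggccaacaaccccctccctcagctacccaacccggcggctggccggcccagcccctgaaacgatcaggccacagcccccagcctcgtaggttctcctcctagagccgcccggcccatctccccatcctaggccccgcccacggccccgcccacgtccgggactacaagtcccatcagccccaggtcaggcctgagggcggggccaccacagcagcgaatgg
Fasn (chr11:120824548-120824797, minus strand): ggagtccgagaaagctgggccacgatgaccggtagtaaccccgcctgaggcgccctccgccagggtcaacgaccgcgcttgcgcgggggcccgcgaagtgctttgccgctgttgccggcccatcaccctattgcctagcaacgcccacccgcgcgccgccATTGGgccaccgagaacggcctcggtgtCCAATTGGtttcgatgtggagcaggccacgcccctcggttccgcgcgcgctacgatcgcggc
Hmgcs1 (chr13:119690101-119690350, plus strand): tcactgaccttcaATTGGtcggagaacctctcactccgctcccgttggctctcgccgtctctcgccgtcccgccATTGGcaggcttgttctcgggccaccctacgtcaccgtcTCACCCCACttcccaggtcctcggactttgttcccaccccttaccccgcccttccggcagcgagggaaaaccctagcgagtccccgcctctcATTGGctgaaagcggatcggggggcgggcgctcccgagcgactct
Mvd (chr8:122443423-122443672, minus strand): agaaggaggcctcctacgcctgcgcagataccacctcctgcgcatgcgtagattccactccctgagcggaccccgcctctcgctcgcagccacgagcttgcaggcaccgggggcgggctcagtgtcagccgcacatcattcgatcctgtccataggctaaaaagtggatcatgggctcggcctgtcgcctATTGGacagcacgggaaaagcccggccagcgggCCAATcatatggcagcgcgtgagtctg
Ebp (chrX:8193513-8193762, minus strand): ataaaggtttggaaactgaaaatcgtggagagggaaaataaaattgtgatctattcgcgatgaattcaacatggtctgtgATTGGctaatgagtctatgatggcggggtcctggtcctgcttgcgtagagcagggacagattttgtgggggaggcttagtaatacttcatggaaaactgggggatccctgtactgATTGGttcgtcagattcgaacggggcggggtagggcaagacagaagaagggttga
Acly had no CCAAT box in this window and 4 GC boxes. Fasn had 3 CCAAT boxes, of which those beginning 62 and 59 bases before the start overlap on opposite strands. Hmgcs1 had 3, with the TCACCCCAC match beginning 137 bases before the start between them, and Mvd and Ebp had 2 each.

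Among the enzymes that supply acetyl-CoA, Acly was the member with the smallest p. Here and for every gene below, values stand in the order of libraries 1, 2 and 3 of each diet. Acly measured 7.36, 4.68 and 7.63 FPKM under NC against 8.89, 9.36 and 9.64 FPKM under HFD. All 3 HFD values were higher than all NC values, and the lowest was that of NC 2. Its log2 fold change was 0.47 (SE 0.23, 95% interval −0.03 to 0.97, limma unadjusted p = 0.0640, adjusted p = 0.9998), and leaving out NC 2 lowered it to 0.28. Among tested genes 3.25% had all HFD values above all NC values, and Acly was the only one of the 33 members that did. Acss2 measured 6.81, 6.89 and 7.31 FPKM under NC against 6.35, 6.39 and 11.2 FPKM under HFD. Only HFD 3 stood above the NC range, and the log2 fold change of 0.12 (SE 0.25) was −0.12 without it. Aacs, which activates acetoacetate for lipid synthesis, measured 1.29, 0.485 and 1.80 FPKM under NC against 0.418, 2.43 and 1.62 FPKM under HFD, so that low values occurred on both diets.

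Fasn and Scd1, the synthase and a stearoyl-CoA desaturase, had lower means on HFD. Fasn measured 3.43, 1.81 and 2.83 FPKM under NC against 1.44, 1.35 and 2.48 FPKM under HFD. The HFD 3 value lay inside the NC range. Fasn had a log2 fold change of −0.42 (SE 0.25, 95% interval −0.97 to 0.13, limma unadjusted p = 0.125, adjusted p = 0.9998). Scd1 measured 7.70, 1.98 and 4.27 FPKM under NC against 1.39, 1.64 and 4.61 FPKM under HFD. NC 1, NC 3 and HFD 3 were high and NC 2 was near the low HFD libraries, so that the diets overlapped. Scd1 had a log2 fold change of −0.65 (SE 0.40, 95% interval −1.51 to 0.22, limma unadjusted p = 0.128, adjusted p = 0.9998), and it ran from −1.04 without NC 2 to −0.27 without NC 1. Scd1 had the largest difference in either direction among the 33 members.

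The other desaturases repeated part of that order of libraries. Scd2 measured 6.05, 3.34 and 4.79 FPKM under NC against 3.42, 2.77 and 5.78 FPKM under HFD, with NC 1 and HFD 3 highest (log2 fold change −0.22, SE 0.28, and −0.04 without HFD 2). It was above Scd1 in 5 of 6 libraries, the exception being NC 1. Fads1, the delta-5 desaturase of polyunsaturated fatty acids, measured 6.202, 3.75 and 5.10 FPKM under NC against 3.396, 3.68 and 5.39 FPKM under HFD. NC 1 was again highest and HFD 1 lowest, and the log2 fold change was −0.22 (SE 0.25, 95% interval −0.76 to 0.32, limma unadjusted p = 0.388, adjusted p = 0.9998), with −0.08 without NC 1. Fads2, the delta-6 desaturase, measured 1.64, 0.780 and 1.75 FPKM under NC against 0.750, 0.603 and 1.84 FPKM under HFD, where NC 2, HFD 1 and HFD 2 were the low ones (log2 fold change −0.23, SE 0.27). Scd4, a desaturase described in heart, did not share the order (3.70, 1.176 and 4.95 FPKM under NC against 4.59, 1.94 and 3.70 FPKM under HFD), with HFD 1 high. The Scd genes lie in a cluster on chromosome 19 (mm10), Scd1 from 44394455 to 44407879, Scd2 from 44293674 to 44306864 and Scd4 from 44333092 to 44346743. Of the 50-base words in their longest transcripts, 4.66%, 4.01% and 6.32% also occur in transcripts of other genes, so reads of those stretches may not be told apart.

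Adipocyte markers were high in the same libraries. Adipoq, which encodes adiponectin, measured 5.89, 0.326 and 4.41 FPKM under NC against 0.128, 2.10 and 5.23 FPKM under HFD. Cfd (adipsin) measured 48.2, 2.40 and 43.4 FPKM under NC against 0.630, 8.93 and 37.9 FPKM under HFD. NC 1, NC 3 and HFD 3 were the 3 high libraries for both, as for Scd1, Fasn, Fads2, Scd2 and Fads1. They were not the 3 highest for the other tested lipogenic members, Acly, Scd4, Elovl1, Elovl5, Srebf1, Thrsp, Mlxipl, Acss2 and Aacs. The same 3 libraries were also highest in the mean log2(FPKM + 1) of all tested genes, which was 3.176, 2.975 and 3.153 in the NC libraries and 2.91, 3.065 and 3.245 in the HFD libraries. The summed level of the 9 markers came to 84.9, 22.2 and 72.2 FPKM under NC against 22.4, 36.1 and 78.3 FPKM under HFD. Cidea, also expressed in heart, went another way, between 15.2 and 18.5 FPKM under NC against 21.2 to 22.0 FPKM under HFD. It made up 18.5 of the 22.2 FPKM summed in NC 2 and 21.2 of the 22.4 FPKM summed in HFD 1, so the sum understates how far the other markers varied. Retn was listed at 0 in HFD 1, Adrb3 in NC 2, Lep in NC 2, HFD 1 and HFD 2, and Ucp1 in all but HFD 1 and HFD 3. A fit chosen after seeing the data took the mean log2 level of the 9 markers, Cidea included, as a covariate. With it the log2 fold change of Scd1 was −0.45 (SE 0.23) and that of Fasn −0.33 (SE 0.19). Acly was at 0.52 (SE 0.20, limma unadjusted p = 0.0277) in that fit, and none of the 33 members passed (smallest limma adjusted p = 0.992). Fibroblast markers, 6 genes, had their low sums in NC 2, HFD 1 and HFD 2 too, at 322.6, 351.9 and 281.4 FPKM against 555.1 to 590.2 FPKM in the other 3. The sums of 7 Schwann cell markers (49.65, 27.97 and 42.44 FPKM under NC, 28.18, 32.07 and 41.5 FPKM under HFD) and of the 6 atrial markers (3559, 355.7 and 13940 FPKM, then 1549, 444.6 and 7123 FPKM) had the same 3 low libraries. As the low libraries are shared, the covariate fit cannot tell adipocytes apart from these other sources. The part of adipocytes, fibroblasts, Schwann cells and atrial tissue in the levels of these genes was not tested.

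**Figure D2:**
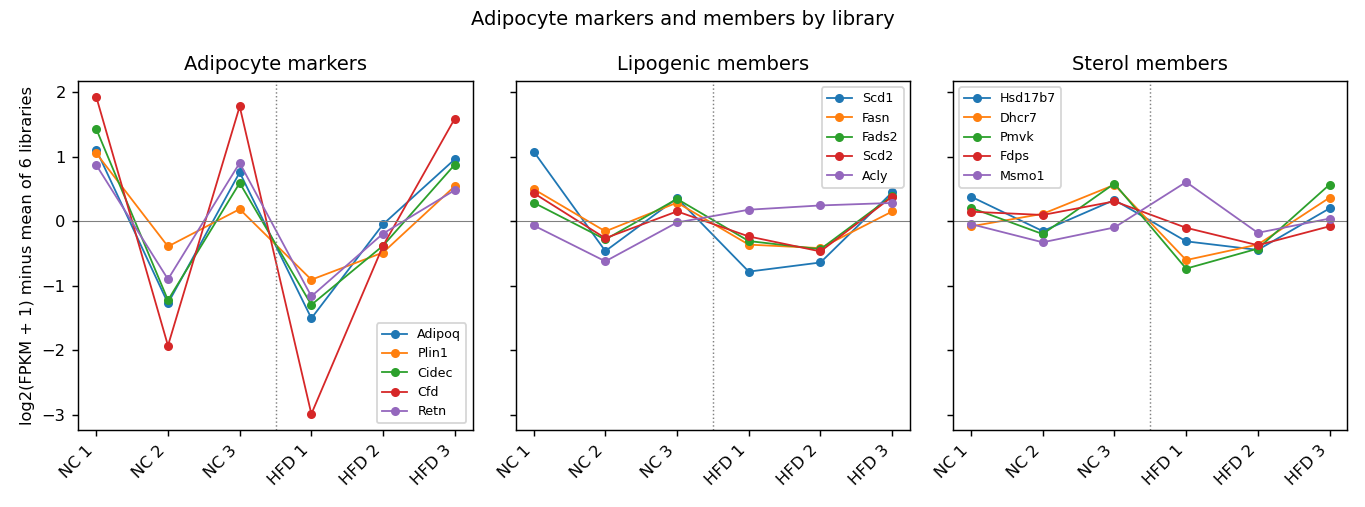
Log2(FPKM + 1) minus the mean of the 6 libraries for 5 adipocyte markers (left), 5 lipogenic genes (middle) and 5 sterol genes (right), with 1 line per gene and the dotted line between NC and HFD. The adipocyte markers drawn (Adipoq, Plin1, Cidec, Cfd and Retn), Scd1 and Fads2 are high in NC 1, NC 3 and HFD 3, whereas Acly is highest in the HFD libraries. Cidea, on the same marker list but not drawn, is also highest in the HFD libraries. Lep, Adrb3 and Ucp1 of that list are not drawn either. The other lipogenic and sterol members are not drawn, and those of the lipogenic arm except Fads1 have other high libraries.

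Of the 3 elongases, Elovl5 had a higher mean on HFD, without passing the test, and Elovl1 was nearly level. Elovl5, which lengthens polyunsaturated chains, measured 13.5, 9.02 and 9.02 FPKM under NC against 11.3, 11.9 and 14.7 FPKM under HFD. NC 1 lay among the HFD values, and the log2 fold change was 0.26 (SE 0.23, 95% interval −0.25 to 0.76, limma unadjusted p = 0.287, adjusted p = 0.9998). Elovl1 measured 22.4, 16.8 and 21.0 FPKM under NC against 19.3, 21.8 and 18.7 FPKM under HFD, with all HFD values inside the NC range. Its fold between the highest and the lowest library was 1.33, the smallest of the 33 members, and its log2 fold change of −0.005 changed sign under all 3 other scalings. Elovl6, the elongase of palmitate and a known SREBP-1c target, was not tested. It measured 0.258, 0.116 and 0.328 FPKM under NC against 0.299, 0.176 and 0.177 FPKM under HFD, under the level required for testing.

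The regulators of lipogenesis varied widely within each diet. Srebf1 measured 6.96, 4.24 and 12.9 FPKM under NC against 5.30, 8.42 and 10.4 FPKM under HFD. The highest and the lowest value both belonged to NC, and the log2 fold change was 0.07 (SE 0.34, 95% interval −0.67 to 0.82, limma unadjusted p = 0.831, adjusted p = 0.9998). It was −0.26 without NC 2, −0.11 without HFD 3 and 0.44 without NC 3. Mlxipl, which encodes the carbohydrate-response factor ChREBP, measured 4.58, 8.10 and 9.35 FPKM under NC against 4.22, 14.1 and 10.9 FPKM under HFD. HFD 1 and NC 1 were its low libraries, and the log2 fold change of 0.28 (SE 0.37) was −0.03 without HFD 2 and 0.74 without HFD 1. Thrsp measured 21.9, 16.2 and 11.1 FPKM under NC against 21.5, 21.0 and 16.9 FPKM under HFD. NC 3 was low and NC 1 highest, and the log2 fold change was 0.30 (SE 0.25, 95% interval −0.25 to 0.85, limma unadjusted p = 0.262, adjusted p = 0.9998), with 0.06 without NC 3.

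In the sterol arm the entry enzyme Hmgcs1, HMG-CoA synthase, did not separate the diets. It measured 5.96, 5.13 and 4.51 FPKM under NC against 5.42, 3.51 and 6.09 FPKM under HFD, with both the highest and the lowest value on HFD. The log2 fold change was −0.06 (SE 0.24, 95% interval −0.59 to 0.46, limma unadjusted p = 0.793, adjusted p = 0.9998), and it was 0.05 after rescaling to the same sum and 0.13 without HFD 2. Of its exon bases 12.1% overlap those of the antisense gene Gm48342. Acat2, which joins acetyl-CoA units in the cytosol, measured 1.96, 1.505 and 1.27 FPKM under NC against 1.61, 0.860 and 2.72 FPKM under HFD. Of its 50-base words 45.9% also occur in Acat3, so its level is uncertain.

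Mevalonate kinase Mvk and phosphomevalonate kinase Pmvk were low in HFD 1 and HFD 2 and higher in HFD 3. Pmvk measured 6.53, 4.68 and 8.78 FPKM under NC against 2.92, 3.86 and 8.66 FPKM under HFD. Pmvk had a log2 fold change of −0.39 (SE 0.33, 95% interval −1.12 to 0.33, limma unadjusted p = 0.256, adjusted p = 0.9998), with −0.78 without HFD 3 and −0.13 without HFD 1. Mvk measured 3.94, 2.98 and 4.01 FPKM under NC against 2.15, 2.71 and 4.30 FPKM under HFD (log2 fold change −0.22, SE 0.25, and −0.06 without HFD 1). Its highest and lowest values were both on HFD. Mvd, the decarboxylase that follows, measured 1.62, 1.94 and 1.14 FPKM under NC against 1.60, 2.26 and 1.71 FPKM under HFD, a difference within the spread (log2 fold change 0.16, SE 0.22, and 0.03 without NC 3).

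Fdps was the member in which all HFD values were lower than all NC values. It measured 10.4, 9.996 and 11.7 FPKM under NC against 8.58, 6.94 and 8.73 FPKM under HFD. HFD 2 was the lowest library. Fdps had a log2 fold change of −0.37 (SE 0.21, 95% interval −0.83 to 0.09, limma unadjusted p = 0.105, adjusted p = 0.9998), and it ran from −0.42 to −0.27 when 1 library was left out. Such a separation occurred in 4.88% of tested genes and in 1 of the 33 members. Fdps lies on chromosome 3 (mm10) from 89093588 to 89101959 on the minus strand, and 26.7% of its exon bases overlap those of Gm43738 on the same strand, so reads of the 2 genes may not be told apart. Idi1, the isomerase just before it, measured 1.51, 1.21 and 1.29 FPKM under NC against 0.934, 0.517 and 1.56 FPKM under HFD, where HFD 3 was above every NC value. Of its 50-base words 30.5% occur in transcripts of other genes.

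Squalene synthase Fdft1, the step that commits to sterols, measured 5.74, 5.198 and 4.43 FPKM under NC against 4.96, 4.52 and 6.47 FPKM under HFD, and its log2 fold change was 0.04 (SE 0.22). Exons of the protease gene Ctsb on the opposite strand overlap 18.3% of its exon bases, and whether strand was used in counting is not given here. The epoxidase Sqle measured 0.493, 0.133 and 0.378 FPKM under NC against 0.226, 0.160 and 0.302 FPKM under HFD. The cyclase Lss measured 0.392, 0.317 and 0.514 FPKM under NC against 0.820, 0.422 and 1.25 FPKM under HFD. Both were under the level required for testing. In the fit with no filter the log2 fold change of Lss was 0.36 (limma unadjusted p = 0.1003) and that of Sqle −0.11 (0.371). HFD 1 and HFD 3 were above the NC range for Lss and HFD 2 was inside it.

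The steps from lanosterol to cholesterol went in both directions. Msmo1, the C4 methyl oxidase, measured 2.51, 1.89 and 2.38 FPKM under NC against 4.52, 2.196 and 2.72 FPKM under HFD. HFD 1 stood apart, and the log2 fold change of 0.31 (SE 0.25, 95% interval −0.23 to 0.86, limma unadjusted p = 0.236, adjusted p = 0.9998) was 0.09 without it. Hsd17b7, the ketoreductase that acts after it, measured 2.81, 1.63 and 2.67 FPKM under NC against 1.35, 1.15 and 2.35 FPKM under HFD. NC 2, HFD 1 and HFD 2 were its low libraries, and the log2 fold change was −0.37 (SE 0.25, 95% interval −0.92 to 0.18, limma unadjusted p = 0.166, adjusted p = 0.9998). Nsdhl, the dehydrogenase between them, measured 2.37, 1.57 and 2.55 FPKM under NC against 2.09, 1.29 and 2.27 FPKM under HFD, low in NC 2 and HFD 2 (log2 fold change −0.14, SE 0.24). Cyp51, the lanosterol demethylase, measured 1.69, 1.37 and 0.890 FPKM under NC against 1.28, 0.872 and 1.76 FPKM under HFD. Its log2 fold change of −0.01 (SE 0.24) turned to 0.06 after rescaling to the same sum.

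Of the last enzymes, Dhcr7, which makes cholesterol from its precursor, measured 2.11, 2.56 and 3.86 FPKM under NC against 1.17, 1.56 and 3.24 FPKM under HFD. HFD 1 and HFD 2 were below the NC range and HFD 3 was inside it. Dhcr7 had a log2 fold change of −0.40 (SE 0.29, 95% interval −1.02 to 0.22, limma unadjusted p = 0.188, adjusted p = 0.9998), with −0.68 without HFD 3 and −0.20 without HFD 1. The isomerase Ebp measured 9.28, 9.46 and 8.33 FPKM under NC against 6.88, 6.46 and 9.11 FPKM under HFD. The same 2 HFD libraries were below NC (log2 fold change −0.25, SE 0.22, 95% interval −0.73 to 0.22, limma unadjusted p = 0.269, adjusted p = 0.9998). Sc5d, the sterol C5 desaturase, measured 5.32, 3.395 and 3.54 FPKM under NC against 4.87, 2.84 and 4.67 FPKM under HFD, with low and high values on both diets (log2 fold change 0.01, SE 0.25). Tm7sf2, a sterol C14 reductase, measured 2.77, 2.85 and 6.48 FPKM under NC against 2.71, 8.14 and 3.84 FPKM under HFD, with 1 high library on each diet. Of its exon bases 12.1% overlap those of Vps51 on the same strand.

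The summed level of 6 heart muscle markers was also lowest in HFD 1 and HFD 2, at 11520 and 12410 FPKM against 14850 to 16920 FPKM in the other libraries. HFD 1 was the lowest library for 3 of the 6 and HFD 2 for 3. Of the 6, 5 had a lower mean log2 level on HFD, and Ryr2 had a higher one. All HFD values were below all NC values for Tnnt2 (4045 to 4235 FPKM on NC, 2909 to 3757 FPKM on HFD). The same held for Tnni3 (5576 to 5939 FPKM on NC, 3621 to 4941 FPKM on HFD). Such a separation occurred in 4.88% of tested genes, and limma called neither gene (adjusted p = 0.9998 each). The other markers overlapped between the diets. Myh6 in HFD 2 (1862 FPKM) was above NC 1 and NC 2 (1775 FPKM each). Actc1 and Pln in HFD 1 (2692 and 1014 FPKM) were above NC 3 (2482 and 735.7 FPKM). The part of this sum in the levels of the sterol genes was not tested.

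Among the genes that sense and move sterols, Srebf2 had a lower and Insig1 a higher mean on HFD, and neither passed the test. Srebf2 measured 3.82, 2.80 and 4.13 FPKM under NC against 2.04, 3.10 and 3.78 FPKM under HFD. Its HFD 2 and HFD 3 values lay in the NC range. The log2 fold change was −0.22 (SE 0.25, 95% interval −0.76 to 0.32, limma unadjusted p = 0.388, adjusted p = 0.9998), and −0.04 without HFD 1. Insig1, both a brake on the SREBPs and one of their targets, measured 3.77, 2.88 and 2.61 FPKM under NC against 3.83, 2.80 and 5.15 FPKM under HFD. HFD 3 was highest, and the log2 fold change was 0.25 (SE 0.25, 95% interval −0.29 to 0.79, limma unadjusted p = 0.329, adjusted p = 0.9998), with 0.08 without HFD 3. Stard4, a cytosolic sterol carrier, measured 2.45, 2.03 and 1.23 FPKM under NC against 1.87, 1.72 and 2.04 FPKM under HFD, with all HFD values inside the NC range.

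**Figure D3:**
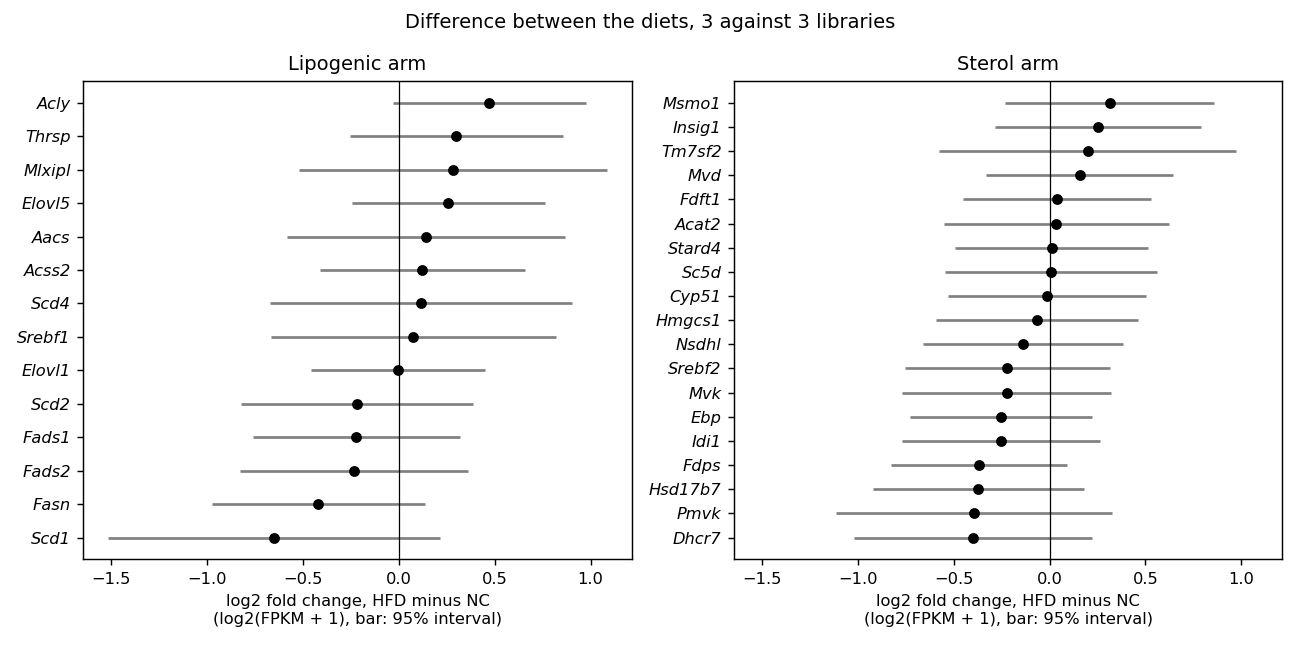
Log2 fold change (HFD minus NC, log2(FPKM + 1)) of the 14 tested lipogenic (left) and 19 tested sterol (right) genes, with limma's 95% interval as a bar, 3 against 3 libraries. Every interval includes 0, and the estimates run from −0.65 for Scd1 to 0.47 for Acly.

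NC 1 was the highest library in 6 of 14 lipogenic members (42.9%, against 18.0% of all tested genes), and NC 2 and HFD 1 were the lowest in 5 each (35.7%, against 20.8% and 33.1% of all tested genes). HFD 2 was the lowest in 9 of 19 sterol members (47.4%, against 23.1% of all tested genes) and HFD 1 in 5 (26.3%, against 33.1%). HFD 3 was the highest in 7 sterol members (36.8%) and in 4 lipogenic ones (28.6%), against 34.5% of all tested genes. It had the highest mean in both arms, as it did over all tested genes. The difference between the arms was not tested. When 1 library was left out, 19 of the 33 members kept the sign of their log2 fold change in all 6 fits, 8 lipogenic and 11 sterol. The median of the lipogenic arm went from 0.09 to −0.19 without NC 2, −0.03 without HFD 2 and −0.04 without HFD 3. That of the sterol arm was −0.22 without HFD 3 and 0.02 without NC 1 or HFD 2. The median of all tested genes also moved, to −0.11, without HFD 3.

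**Figure D4:**
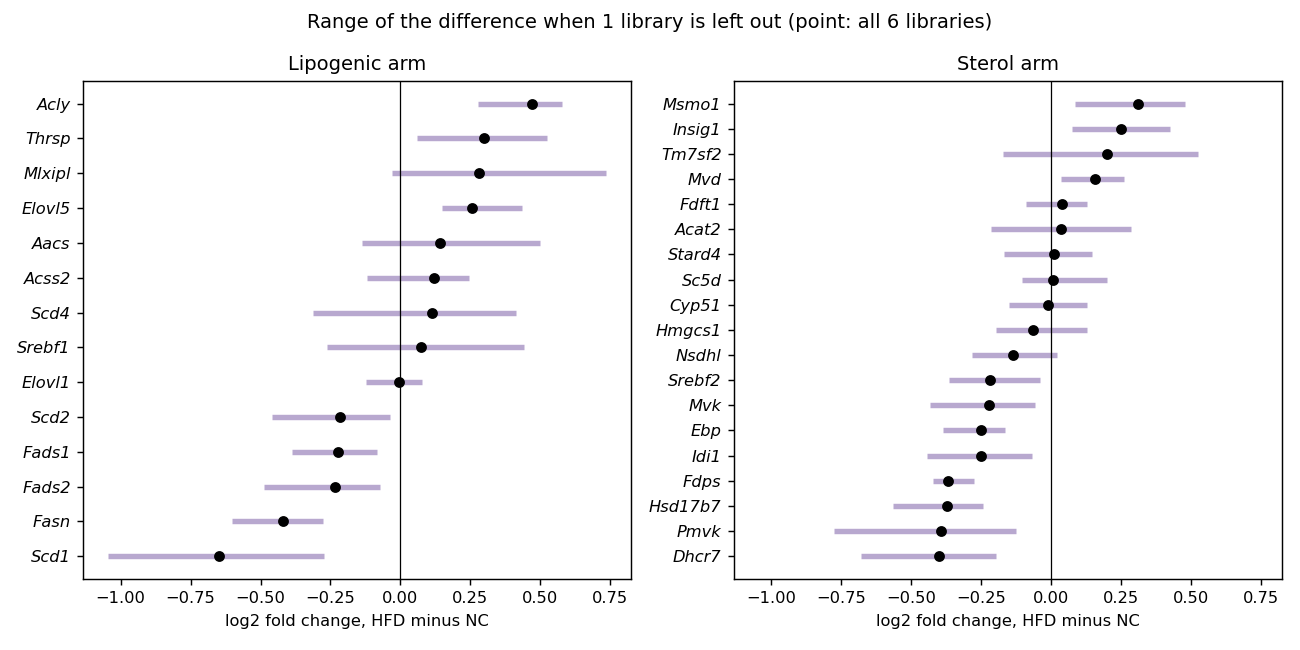
Range of the log2 fold change (HFD minus NC) over the 6 fits that each leave out 1 library (purple bar), with the value from all 6 libraries as a point, for the lipogenic (left) and sterol (right) genes. The bars of 14 of 33 genes include both signs, whereas those of Fasn, Scd1, Acly, Fdps, Hsd17b7 and Dhcr7 stay on 1 side of 0.

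Genes of the same pathways outside the 36 were read from 4 lists, of which 40 of 48 genes were tested. Called by limma were 0 of the 40 (0.0% of all tested genes), with an unadjusted p under 0.05 in 1 (3.62% of all tested genes). Of the 40, 18 were higher and 22 lower (55%, against 53.1% of all tested genes). Their median log2 fold change was −0.04, against −0.02 over all tested genes. Among 13 tested genes of fatty acid synthesis, 4 were higher and 9 lower. Acacb, the acetyl-CoA carboxylase whose product restrains fatty acid oxidation, averaged 17.97 ± 7.196 FPKM under NC against 22.04 ± 4.484 FPKM under HFD (SD, n = 3 each), with a log2 fold change of 0.33 (SE 0.28). It was above the lipogenic form Acaca in 6 of 6 libraries, by 19.5 times in the means. The citrate carrier Slc25a1 had a log2 fold change of −0.37 (SE 0.34) and the dehydratase Hacd1 one of −0.20 (SE 0.24). Of 5 tested genes of other sterol and isoprenoid steps, 2 were higher and 3 lower, with −0.24 (SE 0.23) for Pdss2, 0.16 (SE 0.23) for Ggps1 and 0.14 (SE 0.23) for Nus1.

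Control genes of the SREBPs and of the liver X receptors (LXRs), which sense oxysterols, were higher in 7 and lower in 6 of 13. Mylip, an LXR target whose product degrades lipoprotein receptors, measured 7.13, 3.34 and 4.73 FPKM under NC against 8.20, 8.23 and 10.7 FPKM under HFD. All HFD values were above all NC values. The log2 fold change was 0.76 (SE 0.26, 95% interval 0.20 to 1.33, limma unadjusted p = 0.0125), but it did not pass over all genes (adjusted p = 0.9998). Abca1, an LXR target that exports cholesterol, had a log2 fold change of 0.36 (SE 0.23) with overlapping diets, and Mlx, the partner of ChREBP, one of −0.38 (SE 0.25). Insig2 was above Insig1 in 6 of 6 libraries, at a mean of 12.0 against 3.51 FPKM. Among 9 genes of sterol uptake, transport and storage, 5 were higher and 4 lower. Vldlr, a lipoprotein receptor, measured 17.8, 15.6 and 17.1 FPKM under NC against 19.3, 25.1 and 23.8 FPKM under HFD. The lysosomal lipase gene Lipa measured 5.32, 3.84 and 5.16 FPKM under NC against 6.90, 6.16 and 7.09 FPKM under HFD. Both separated the diets, with log2 fold changes of 0.41 (SE 0.21) and 0.43 (SE 0.22), and neither passed (limma adjusted p = 0.9998 each). Lrp1 had a log2 fold change of −0.38 (SE 0.32). With Mylip, 3 of the 40 tested genes had all HFD values above NC, against 3.25% of all tested genes.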

How the data were processed

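The authors deposited 1 table of FPKM values per gene and library, per the file headers. Per the submitters' processing notes, the build was mm10 and the tools included HISAT2 2.2.1 and Trimmomatic 0.38, with DESeq2 1.18.1, R 3.4.1, HTSeq 0.13.5 and FastQC 0.11.9 also listed, without roles. No source used here gives the program behind the FPKM values, the depth or the strand setting. Per the labels, the RNA came from Trizol extraction and the libraries from a VAHTS kit for mRNA. Among 701 genes above 0 and under 0.3 FPKM in all libraries, at most 1.85% of ratios to NC 1 shared a bin of 0.02 (log2), so no steps of single reads were found and no count test was run.

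Symbols were matched by gene identifier (23718 of 23808). Diets were compared on log2(FPKM + 1), which understates changes of low genes, with limma 3.58.1 under R 4.3.3 (linear models, trended eBayes, two-sided, no covariates, Benjamini-Hochberg over the 11456 genes whose mean reached 1 FPKM). The fit was tested on simulated data. Its median estimates were close to the changes put in, but most genes given the smaller change were not called. That change was larger than the one estimated for any member with all libraries, so a missed call does not show that a gene was unchanged. Changes were put only into genes above a set level, and noise was drawn for each gene apart. Members of low level and shifts shared by many genes were thus not covered. The members, lists and tests were chosen with earlier results of these data known. Every member is named, with full statistics for the 6 of each arm with the smallest p and for Srebf1, Srebf2, Insig1, Fasn, Scd1 and Hmgcs1. Up to 3 genes of each related list are named by the same order, and others only for their role. Alternatives were 2 pseudocounts, 2 filters, 3 scalings, 2 forms of eBayes, library weights, a replicate block, each library left out and another threshold. The fit with the adipocyte covariate was added after seeing the data. Positions and exon overlaps come from GENCODE M21 (mm10), promoters from RefSeq (GRCm38.p6), and plots were made in Python 3.11.15 using matplotlib 3.10.9.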

Additional observations from a re-analysis of the deposited data

How the results depend on the processing

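No tested member passed an adjusted p of 0.05 under any of the 18 alternatives. The count of genes past the threshold was 0 with limma over all genes (415 at an unadjusted p of 0.05) and lay between 0 and 1 with any single library omitted (the 1, without NC 2, was the predicted gene Gm36956, named after its values were seen). With the replicate block it was 73, none of them a member. Deviations of same-numbered libraries from their diet means had correlations over genes of 0.193, 0.0864 and 0.275. NC 1 and NC 3 correlated best with the HFD library of the same number, but NC 2 did so with HFD 1 (0.251). The labels state no covariate, so the main fit was set without the block. Whether the numbers mark pairs is unknown. The median log2 fold change of the lipogenic arm ranged from −0.191 to 0.128, that of the sterol arm from −0.217 to 0.0217 and that of the related lists from −0.132 to 0.102 with any single library omitted. Rescaling to the same sum moved the lipogenic median to 0.19, the sterol median to 0.05 and that of all genes to 0.09. Then 9 of 14 lipogenic members, 10 of 19 sterol members and 30 of 40 related genes were higher, while 34.75% of all tested genes were lower. Among members and related genes given full statistics or named by p, Hmgcs1 reversed to 0.046 after that rescaling and ranged from −0.197 to 0.129 with a single library omitted, and Srebf1 likewise from −0.261 to 0.442. The other 26 of these 28 kept their sign under every alternative. Most of the 28 were picked by small p, which favors a stable sign. Of all 33 tested members, 14 changed sign when 1 library was left out. The depth is unknown, which limits the members under 1 FPKM most.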
